A study of Homo sapiens with 24 samples.

Results

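In VAL, a human diffuse large B-cell lymphoma line, 973 promoter regions were called less accessible after 8 h of CDK9 inhibition, and carried no call at 3 h or in the second line, OCI-LY3. They were chosen by the authors' own calls of lower accessibility: a region had to stand in the 8 h list of closed regions of VAL, be absent by its coordinates from the 3 h lists of VAL and from the lists of OCI-LY3, and lie within 1 kb of the start site of any basic transcript in the GENCODE annotation of hg19. The 8 lists together hold 26369 distinct regions, of which 7686 lie within 1 kb of a start site. Both lines received 30 nM AZD4573, a CDK9 inhibitor, for 0, 3 or 8 h, and each of the 6 conditions has 4 ATAC-seq libraries, 2 made by the standard protocol from 50000 cells and 2 by Fast-ATAC, for which the sample labels give 5000 cells. The comparisons name DMSO as the control. No label separates the 4 libraries into independent cultures, and each line is 1 cell line, so that nothing here speaks for lymphomas in general.

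CDK9 is the kinase of P-TEFb, which releases paused RNA polymerase II from promoters into elongation. ATAC-seq reads mark DNA that a transposase can reach, and promoters are among the most open sites of a genome. Mammalian promoters fall into a CpG-rich type, which is open in most tissues and common at housekeeping and developmental genes, and a CpG-poor type, which is more often tied to 1 tissue and to binding by its lineage factors. In B cells such factors include POU2F proteins at the octamer, PU.1 and IRF proteins. The CpG ratio used below sets the observed CpG count of a region against that expected from its C and G counts.

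The lists give coordinates alone. No accessibility value of a library, fold change or depth stands behind a region here, so the spread between libraries cannot be shown, and "closed" and "opened" below mean listed by the authors as less or more accessible, past a minimum fold change and a limit on the adjusted p. The sources give different limits on the adjusted p, and the coordinates do not show which was applied. Intervals are 95% intervals that cover counting error alone, and neighbouring regions are not independent. Of the B-cell marker genes CD22, CD79A, CD79B, MS4A1 and PAX5, CD79A and CD79B had a listed promoter region, in both cases opened in VAL at 8 h, and a gene without a listed region may be open and unchanged.

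The start sites of 5 members show the range of base composition, from almost no CpG to a dense run of them. Each line gives 80 bases before and 40 bases from an annotated start site of the gene, 5′ to 3′ on its strand in hg19, with every CpG in capitals. That start site is the one nearest to the region or, where several lay inside it, the one with the lowest coordinate. It need not be the canonical one. RGS1 and P2RY10 are expressed in lymphocytes, whereas EOMES, FZD4 and NR2F2 encode a T-box factor, a Wnt receptor and an orphan nuclear receptor. EOMES and FZD4 were picked after their values were seen.
RGS1, chr1:192544823-192544942, plus strand: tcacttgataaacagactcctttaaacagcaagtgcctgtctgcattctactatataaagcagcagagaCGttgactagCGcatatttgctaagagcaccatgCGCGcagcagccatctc
P2RY10, chrX:78200749-78200868, plus strand: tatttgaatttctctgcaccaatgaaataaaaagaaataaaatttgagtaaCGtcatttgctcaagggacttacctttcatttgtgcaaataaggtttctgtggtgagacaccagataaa
EOMES, chr3:27763775-27763894, minus strand: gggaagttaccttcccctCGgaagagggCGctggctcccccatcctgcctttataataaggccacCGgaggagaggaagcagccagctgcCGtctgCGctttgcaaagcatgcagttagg
FZD4, chr11:86666398-86666517, minus strand: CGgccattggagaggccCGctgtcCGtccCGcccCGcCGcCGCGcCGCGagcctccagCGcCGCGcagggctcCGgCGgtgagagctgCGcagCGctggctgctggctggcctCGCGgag
NR2F2, chr15:96873849-96873968, plus strand: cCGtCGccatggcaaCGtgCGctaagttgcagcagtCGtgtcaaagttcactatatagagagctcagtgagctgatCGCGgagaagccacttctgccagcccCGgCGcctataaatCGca
These windows hold 4 CpG at RGS1 and 1 at P2RY10, against 5 at EOMES, 19 at FZD4 and 10 at NR2F2.

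The 973 members were 79.9% of the 1218 promoter regions closed in VAL at 8 h. Of the 9260 regions closed in VAL at 8 h, 1172 had a call at 3 h in the same line (1171 closed, 1 opened), and a further 971 had a call in OCI-LY3, which left 7117 regions. The members were 13.7% of these (interval 12.9 to 14.5), and the other 6144 regions were distal. Regions opened in VAL at 8 h alone lay at promoters more often, 2857 of 6585 (43.4%, interval 42.2 to 44.6). As background, 35.1% of all listed regions and 15.8% of listed promoter regions were closed in VAL at 8 h. These are shares of listed regions, because peaks without any call are not used here, and the rule itself chose on that contrast.

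Members lay at canonical coding start sites, at lncRNAs and at other start sites. The nearest start site was the Ensembl canonical one of a protein-coding gene for 439 members (45.1%), another start site of a protein-coding gene for 118 (12.1%), a lncRNA for 280 (28.8%) and another gene type for 136 (13.98%), of which 58 were processed pseudogenes, 19 miRNAs and 17 snRNAs. The canonical share depends on the rule, and was 50.7% with the limit taken from the region midpoint and 78.1% with coding start sites only. Among opened promoters of VAL the canonical share was 72.5% and the lncRNA share 12.8%. The difference in the canonical share, members minus opened, was -27.3 percentage points (interval -30.8 to -23.8), and the share was lower on 20 of 22 autosomes. The lncRNA share was 15.9 points higher (interval 12.9 to 19.1) and higher on 17 of 22 autosomes. Both counts of autosomes take in those with few members, such as chromosomes 16, 19 and 22 with 1 each. The 143 promoters closed in both lines at 8 h had a canonical share of 40.6%, and the difference of 4.56 points had an interval from -4.20 to 12.9. Their share of other gene types was higher, with a difference, members minus both, of -7.00 points (interval -14.7 to -0.690).

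**Figure D1:**
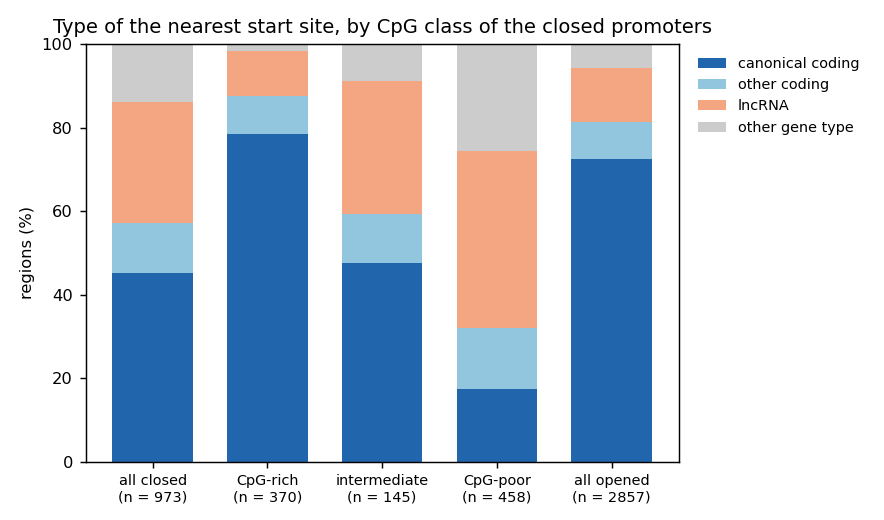
Type of the nearest start site as a percent of regions (y axis), for all 973 late closed promoters of VAL, for their CpG-rich, intermediate and CpG-poor classes, and for the 2857 late opened promoters. The canonical coding share is 78.4% in the CpG-rich class, close to the 72.5% of opened promoters, and 17.5% in the CpG-poor class, where lncRNAs make up 42.4%.

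The members were of 2 kinds by base composition. Their CpG ratio had a median of 0.42 (quartiles 0.22 and 0.68), but few members lay at that median: 186 had a ratio from 0.2 to 0.3 and 157 from 0.6 to 0.7, against 70 from 0.4 to 0.5. With limits set after this distribution was seen, 370 members (38.03%, interval 35.0 to 41.1) were CpG-rich, with a ratio of at least 0.6, 458 (47.1%) were CpG-poor, with a ratio under 0.4, and 145 were intermediate. Which class is larger depends on the rule, as 58.1% of members were CpG-rich with coding start sites only. Opened promoters were CpG-rich in 71.3% and CpG-poor in 15.7% of cases. Distal regions that closed late in VAL were CpG-poor in 94.7%, and promoters closed in both lines in 63.6% (interval 55.5 to 71.1). Within an autosome the mean ratio of members minus that of opened promoters was -0.21 ± 0.14 (SD over 22 autosomes) and was negative on 21 of 22. Members minus distal closed regions gave 0.24 ± 0.13. On the 18 autosomes with at least 5 regions of each set, both differences had these signs on all 18.

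**Figure D2:**
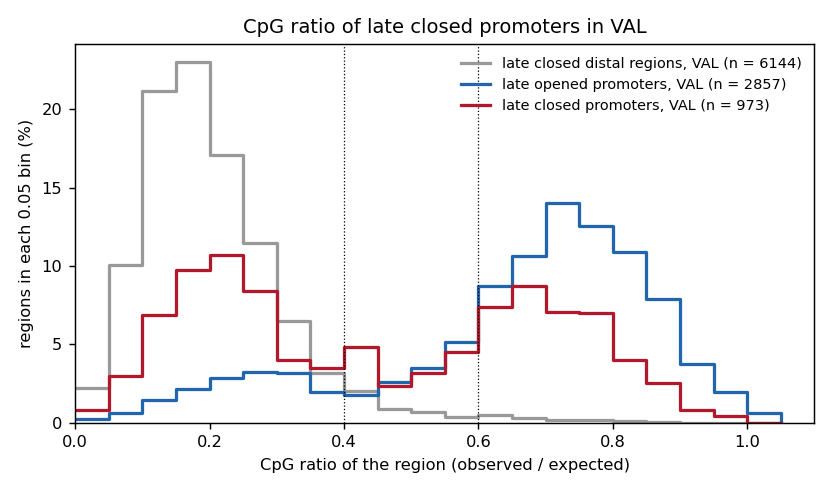
CpG ratio of a region (x axis, observed over expected, drawn to 1.1) against the percent of regions in each 0.05 bin (y axis) for late closed promoters, late opened promoters and late closed distal regions of VAL. Dotted lines mark 0.4 and 0.6. The closed promoters have 1 peak at the ratios of distal regions and 1 at those of opened promoters.

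GC content followed the same order. Members had a median GC of 47.4% (quartiles 41.0 and 56.4), distal closed regions 40.2% and opened promoters 62.6%. The median was 58.3% in CpG-rich and 41.1% in CpG-poor members. The 143 promoters closed in both lines, with a median GC of 46.8%, differed from members by less than the spread between autosomes (members minus both, 1.008 ± 7.02 points, SD over 20 autosomes). On the 12 autosomes with at least 5 regions of each set this difference was -0.676 ± 3.20 points. Base composition moved with the direction of the call, and its part in the calls was not tested.

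Start sites lay inside the region at most CpG-rich members and at fewer CpG-poor ones. A start site lay inside 776 of 973 members (79.8%, interval 77.1 to 82.2), in 96.2% of CpG-rich and 63.5% of CpG-poor members. Opened promoters held one in 87.3%, 7.51 points more (members minus opened, interval -10.4 to -4.78). Promoters closed in both lines held one in 71.3% (members minus both, 8.42 points, interval 1.15 to 16.7). Start sites on both strands within the limit, as at a divergent promoter, were found at 15.1% of members and 25.9% of opened promoters, with 29.5% in the CpG-rich and 4.37% in the CpG-poor class. Members had a median width of 1596 bp (quartiles 1312 and 1911), against 1482 bp for opened promoters and 1319 bp for distal closed regions. The mean difference from opened promoters, 131 ± 177 bp (SD over 22 autosomes), was smaller than its spread, although 20 of 22 autosomes showed it. On the 18 autosomes with at least 5 regions of each set it was 127.6 ± 128.1 bp, higher on 17.

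The sequence around the members, far beyond the regions, separated them from opened promoters in both CpG classes. GC within 100 kb on either side had a median of 39.3% (quartiles 37.5 and 41.2) at members and 48.1% (quartiles 44.6 and 51.5) at opened promoters. Within an autosome the mean difference, members minus opened, was -7.26 ± 2.87 points (SD over 22 autosomes), and it was negative on 22 of 22. CpG-rich members had a median of 39.3% and CpG-poor members of 39.2%, whereas CpG-rich and CpG-poor opened promoters had 47.8% and 48.6%. A surrounding GC of at least 45% was found at 24 of 370 CpG-rich members (6.49%) and at 1427 of 2036 CpG-rich opened promoters (70.1%). The region itself is a small part of this window. Members of both CpG classes thus lay in GC-poor surroundings, and so did other closed regions. The median was 38.5% at late closed distal regions of VAL and 39.8% at promoters closed in both lines.

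**Figure D3:**
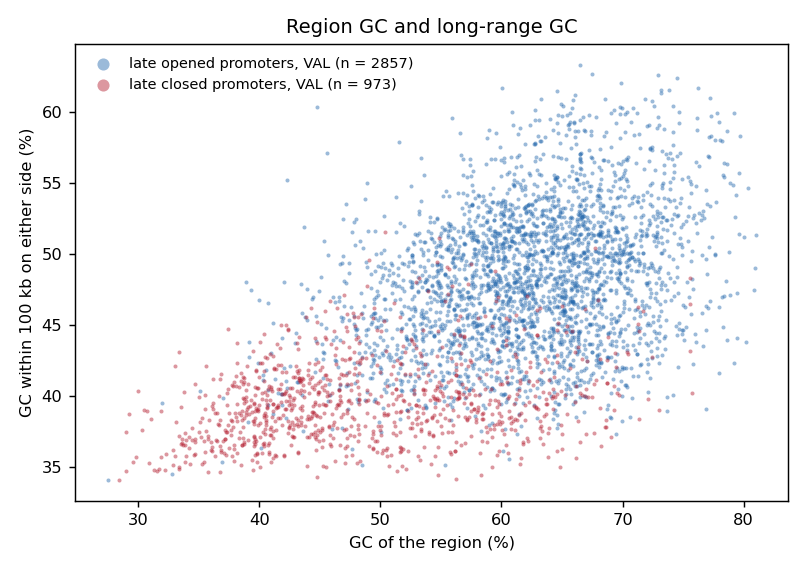
GC of each region (x axis, percent) against GC within 100 kb on either side of its midpoint (y axis, percent) for late closed and late opened promoters of VAL, 1 point a region. Closed promoters spread along the x axis but lie low on the y axis, with medians of 39.3% against 48.1%.

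The same held when all listed promoter regions were divided by surrounding GC, and this division is a description, since membership is the call itself. Among CpG-rich listed promoters with a surrounding GC under 38%, 107 of 170 were members (62.9%, interval 55.5 to 69.8). The share was 18.7% from 40 to 42%, 1.57% from 45 to 50% and 0.056% (1 of 1792) at 50% or more. Among CpG-poor listed promoters the share went from 53.0% (150 of 283) to 0.548% (2 of 365) over the same range. Members also stood in gene-poor surroundings, with a median of 1 canonical coding start site within 100 kb (quartiles 1 and 2) against 4 for opened promoters (quartiles 2 and 7). The mean difference within an autosome, members minus opened, was -2.49 ± 1.496 start sites (SD over 22 autosomes, negative on 22 of 22). Distal closed regions had a median of 1 such start site, and promoters closed in both lines of 2.

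The members were unevenly spread over chromosomes. Chromosome 2 held 126, chromosome 4 112 and chromosome 1 95, but chromosomes 16, 19 and 22 held 1 each, chromosome 20 held 2 and chromosome 17 held 5. On chromosome 4, 46.3% of the 242 listed promoter regions were members (interval 40.1 to 52.6), on X 35.5% of 124, and on chromosome 19 0.121% of 825 (interval 0.0214 to 0.683). Over the 22 autosomes this share had a Spearman rho of -0.89 and a Pearson r of -0.81 with the GC of the chromosome, a description over chromosomes that differ in size and gene content. The gap was also present among promoters of like region GC. In the lowest of 5 equal classes of region GC, 2.91% of listed promoters on chromosomes 16, 17, 19, 20 and 22 were members and 41.8% of those elsewhere, and in the highest class 0.154% and 4.51%. This group of chromosomes was picked after the values were seen.

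**Figure D4:**
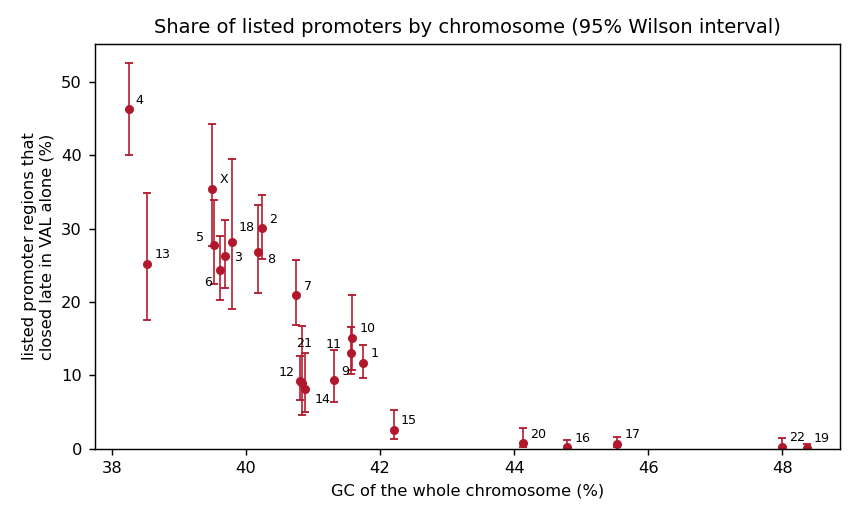
GC of each chromosome (x axis, percent) against the percent of its listed promoter regions that closed late in VAL alone (y axis), with 95% Wilson intervals and chromosome names. Chromosome 4, the most GC-poor, is highest at 46.3%, and chromosomes 16, 17, 19, 20 and 22 are all under 1%.

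Members lay beside other closed regions. Another region closed in VAL at 8 h was found within 100 kb of 717 members (73.7%, interval 70.8 to 76.4), and an opened one near 137 (14.1%). Late closed distal regions had nearly the same shares, 73.6% and 13.2%. Opened promoters had a closed region within 100 kb in 5.18% of cases and another opened one in 83.9%. Neighbours come from the same contrast as the members, so that these shares describe the lists and are not a test. Joining members no more than 100 kb apart gave 856 loci, 760 of them with a single member and 17 with 3 or 4.

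Some of the loci with most members held related genes. On chromosome 2, 4 members spanned 166005750 to 166151072, at the sodium channel genes SCN3A and SCN2A (2 members) and at RN7SL455P. On chromosome 6, VNN1, VNN2 (2 members) and SLC18B1 stood between 133034069 and 133120613. VNN1 and VNN2 encode vanins, pantetheine hydrolases, and VNN2 is expressed on leukocytes. A further 4 members on chromosome 6, within 103707 bp, included a start of GCNT2, the enzyme of the I blood group antigen, with 2 lncRNAs and a processed pseudogene. RGS1 lay in a run of 3 members with a miRNA and a lncRNA, and EOMES in a run of 3 with the lncRNA LINC02084 and the pseudogene TPM4P2. These loci were picked after their values were seen.

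Short motifs were searched on both strands in the central 200 bp of each region, and 15 of 18 differed between members and opened promoters with an interval that left out 0. The SP and KLF box GGGGCGGG was found in 8.63% of members and 25.3% of opened promoters (members minus opened, -16.7 points, interval -19.0 to -14.2, lower on 17 of 18 autosomes with at least 5 regions of each). The IRF repeat GAAANNGAA was found in 8.32% and 2.56% (5.77 points, interval 4.07 to 7.74, higher on 15 of 18). TATAAA was found in 10.4% and 2.52% (7.86 points, interval 5.98 to 10.0, higher on 15 of 18). The octamer ATGCAAAT was found in 2.67% and 0.700% (1.97 points, interval 1.05 to 3.21, higher on 10 and lower on 3 of 18). In windows of the same length at all 110162 annotated start sites the shares were 13.4%, 5.49%, 8.21% and 1.34%. A match is a string of letters, not evidence of binding.

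With GC held between the members' quartiles, 41.0 and 56.4%, the comparison kept 487 members and 583 opened promoters, and 6 of 18 motifs then had an interval that left out 0. The differences of AP-1, STAT and BCL6, RUNX, CTCF, E2A, NFkB, CRE, NFY, NRF1 and the octamer no longer did, in sets that were also smaller. Some of these differences were no nearer to 0 than before, such as that of E2A, at -4.09 points (interval -8.73 to 0.651) after -3.15 points in all regions. YY1 (AAGATGGC), whose interval held 0 in all regions, had a difference of -2.44 points (interval -4.59 to -0.315). The IRF repeat was still more frequent in members, 8.01% against 4.80% (3.21 points, interval 0.274 to 6.32), and so was TATAAA, 8.83% against 4.97% (3.86 points, interval 0.823 to 7.07). GGGGCGGG stayed less frequent, 6.37% against 10.6% (-4.27 points, interval -7.59 to -0.885), as did the ETS box CCGGAAGT, 1.03% against 3.60% (-2.58 points, interval -4.51 to -0.743). The E-box CACGTG of MYC and USF was also less frequent, 3.08% against 6.69% (-3.61 points, interval -6.23 to -0.992). The octamer difference shrank to 0.887 points with an interval from -0.759 to 2.75. Within the CpG-poor class, the octamer was found in 4.37% of members and 2.00% of opened promoters (2.36 points, interval 0.0347 to 4.83). In the CpG-rich class the octamer difference was 0.467 points (interval -0.180 to 2.02). In the CpG-poor class the IRF repeat reached 12.01% of members and 4.90% of opened promoters (7.11 points, interval 3.52 to 10.8), and the E2A E-box CAGGTG was lower, 16.4% against 30.5% (-14.1 points, interval -19.5 to -8.65). In the CpG-rich class these differences were 1.79 points (interval 0.201 to 4.25) and -1.10 points (interval -4.76 to 3.17). The PU.1 box GAGGAAGT was found in 1.75% of members, 1.51% of opened promoters and 4.004% of distal closed regions. Its difference between members and distal regions was -2.26 points (interval -3.09 to -1.13), but 0.848 points (interval -1.49 to 3.42) when whole regions were searched. RUNX (TGTGGTT) and CTCF matches were also less frequent in members than in distal regions, with differences of -2.98 points (interval -4.17 to -1.49) and -2.75 points (interval -3.98 to -1.22) at any GC. Between the GC quartiles these were -1.63 points (interval -3.43 to 0.761) and -2.05 points (interval -3.75 to 0.223), and both intervals held 0. Against promoters closed in both lines, 17 of 18 motifs had an interval that held 0. The exception was the IRF repeat, at 8.32% and 13.99% (members minus both, -5.66 points, interval -12.5 to -0.547).

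**Figure D5:**
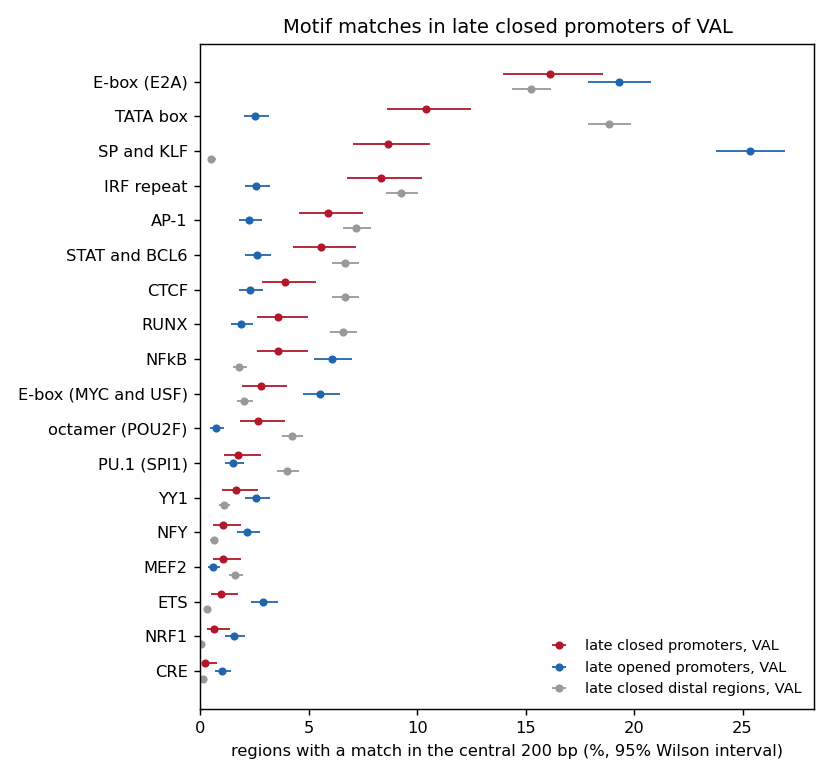
Percent of regions with at least 1 match in the central 200 bp (x axis, with 95% Wilson intervals) for 18 motifs (y axis) in late closed promoters, late opened promoters and late closed distal regions of VAL. Closed promoters fall between the other sets for SP and KLF (8.63%, against 25.3% and 0.488%) and TATA (10.4%, against 2.52% and 18.8%), and beside the distal regions for the IRF repeat.

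TATA boxes at the usual place before a start site were few. In the window 40 to 20 bp upstream of the canonical coding start, on the sense strand, TATAAA was found at 15 of 439 members (3.42%), 31 of 2070 opened promoters (1.498%) and 756 of 19789 canonical coding starts of the annotation (3.82%). The difference from opened promoters was 1.92 points (interval 0.447 to 4.11), and in the CpG-poor class it was -2.78 points with an interval from -11.02 to 6.29. RGS1, printed above, carries tatataaa shortly before its start.

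Motif matches at named members are printed with 30 bases on either side, on the strand of the gene and with the match in capitals, to show where it stands. A match to the opposite strand appears as its reverse complement, as at P2RY10 and CMPK2. The octamer, the site of POU2F1, POU2F2 and the coactivator POU2AF1 in B cells, was matched at IFIT2, an interferon-induced gene, NEDD9, an adhesion scaffold, and NHSL1.
IFIT2, chr10:91061906-91061973, octamer: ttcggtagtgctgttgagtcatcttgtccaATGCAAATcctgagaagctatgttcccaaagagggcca
NEDD9, chr6:11232913-11232980, octamer: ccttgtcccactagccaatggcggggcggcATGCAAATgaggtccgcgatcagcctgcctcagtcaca
NHSL1, chr6:138820692-138820759, octamer: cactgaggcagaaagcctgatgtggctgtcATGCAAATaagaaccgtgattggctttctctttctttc
P2RY10, chrX:78200843-78200910, PU.1: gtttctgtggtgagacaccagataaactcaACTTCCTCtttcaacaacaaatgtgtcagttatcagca
ARHGAP15, chr2:143886592-143886659, PU.1: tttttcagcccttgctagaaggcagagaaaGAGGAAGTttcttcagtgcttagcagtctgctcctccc
SAMD9, chr7:92747390-92747458, IRF repeat: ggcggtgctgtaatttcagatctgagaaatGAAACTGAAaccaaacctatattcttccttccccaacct
CMPK2, chr2:7005907-7005975, IRF repeat: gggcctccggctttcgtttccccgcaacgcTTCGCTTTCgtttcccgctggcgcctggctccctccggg
Positions are counted from a start site chosen as for the windows above, which need not be the canonical one, and are negative before it. The octamers of NEDD9, NHSL1 and IFIT2 were centred at -55, -94 and 136 bp. The PU.1 match of P2RY10, a lysophosphatidylserine receptor of lymphocytes, was centred at 47 bp, and that of ARHGAP15, a Rac GTPase-activating protein of haematopoietic cells, at -363 bp. The 2 IRF repeats, chosen after their values were seen, were centred at -132 and -98 bp at SAMD9 and CMPK2. SAMD9 and CMPK2 are interferon-induced genes, and the CMPK2 member also holds a start site of its divergent neighbour RSAD2 (viperin). The other coding genes with an octamer at a member were CSRNP3, NXPE3, MYO6, ZPBP and E2F5, and those with a PU.1 match were ACCS, DLG2, EHD3, GPD2, SPTLC3, OXTR, C4orf33, GRAMD2B and ETV1.

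Coding genes with a member numbered 575, and 473 of them had their canonical start site within 1 kb of it. This was 8.8% of the 6535 coding genes with any listed promoter region, the share against which each gene list below is read. Late opened promoters touched 2583 of the same 6535 genes, the share against which the counts at opened promoters are read. Both were found at 3 genes (FAM20A, LGR6 and MCC, named after the count was seen). Of 23 gene lists, 17 had a gene at a member and 55 genes in all. The counts are a description of the lists and carry no test.

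Of genes of lymphocyte positioning, 3 are described singly, with no count over their list. RGS1, a brake on chemokine receptor signalling (chr1:192544349-192545681, CpG ratio 0.23), and P2RY10, a lysophosphatidylserine receptor (chrX:78200189-78201693, CpG ratio 0.12), were both closed at the canonical start. CCR6, the CCL20 receptor, was closed at an upstream start site (chr6:167526195-167528478, CpG ratio 0.30, 900 bp from that start). RGS1 had 8 other closed regions within 100 kb.

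Regulators of germinal centre and plasma cells had 5 genes at members of 22 with a listed promoter (22.7%, interval 10.1 to 43.4), with 5 at opened promoters. PRDM1, the plasma cell regulator Blimp-1, had a region ending 911 bp upstream of its canonical start (chr6:106531834-106533284). The other 4 members lay at alternative starts. Where a region held several start sites of a gene, the distance from the canonical one is given here and below for the start site with the lowest coordinate. MEF2C, a MADS-box factor of B cells, was closed 57336 bp downstream of its canonical start (chr5:88121225-88123868), TCF4 (E2-2) 165836 bp downstream (chr18:53089463-53091338), ZEB2, a zinc finger repressor, 89185 bp downstream (chr2:145187840-145189562) and FLI1, an ETS factor, at a start upstream of the canonical one (chr11:128555744-128557503). Whether such internal starts are used as promoters in VAL was not tested.

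The B-cell receptor list had 2 genes at members of 19 with a listed promoter, close to the background, with 3 at opened promoters. BANK1, a B-cell adaptor protein, was closed at a start 23096 bp inside the gene (chr4:102734413-102736310), and DAPP1, an adaptor that binds PI3K lipids, at its canonical start (chr4:100737004-100739464). TRAF1, an adaptor of TNF receptors and an NF-kB target, was the only NF-kB list gene of 18 (chr9:123688072-123689116), with 6 at opened promoters. Antigen presentation had 0 of 17 and 4 opened. IFIT2 was 1 of 23 in the JAK-STAT and interferon list (10 opened).

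In apoptosis, BCL2, the anti-apoptotic protein, was closed at an internal start 157900 bp downstream of the canonical one (chr18:60827747-60830161, CpG ratio 0.22), and 12 other closed regions lay within 100 kb of it. CASP8, the initiator caspase of death receptors, had 2 CpG-poor members at starts upstream of the canonical one, 27157 bp apart from end to end.

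Chromatin modifiers had 5 of 37 (13.5%, interval 5.91 to 28.0), with 12 at opened promoters. They were BAZ2B, CHD2, EED (a subunit of Polycomb complex PRC2), HDAC9 with 2 members and SMARCA2, the BRM ATPase of BAF. SMARCA2 was closed at starts inside the gene, the first 142336 bp and the one nearest the region midpoint 143126 bp from the canonical one, and EED at one upstream of it. In elongation and Mediator, the pathway of the drug's target, 1 of 45 genes had a member (interval 0.393 to 11.6%). This was MLLT3 of the super elongation complex, at a start 240031 bp inside the gene. An opened promoter was found at 11 of the 45, a lower share than the 2583 of 6535 over all genes.

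Several lists of housekeeping function had no member. Splicing factors had 0 of 38 genes, ribosomal proteins 0 of 55, cell cycle 0 of 19 and replication-dependent histones 0 of 18, and their intervals reached 9.18%, 6.53%, 16.8% and 17.6%. Of these, only the interval of ribosomal proteins ended under the background of 8.8%. DNA replication and repair had 1 of 28 (RPA3), autophagy 1 of 19 (PIK3C3) and ZNF genes 4 of 211 (1.90%, interval 0.740 to 4.77), also under it. No list was compared within chromosomes, which differ widely in their share of members. Solute carriers had 10 of 108, RAB GTPases 2 of 24 and ubiquitin ligases of the FBXO, KLHL and TRIM families 4 of 53, close to the background. Of markers of other cell types, T and NK cells had 0 of 5 and myeloid cells 2 of 6 (CEBPD and VCAN, both CpG-rich).

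Genes of development and of cilia were found mainly at CpG-rich members, as were 345 of all 575 coding genes with a member. These families were chosen after the values were seen and lend no support to a theme. In SOX, POU, LHX, FOX, TBX and related factor families, 29 genes had a listed promoter and 9 a member, with 13 at opened promoters. SOX2, a pluripotency and neural factor (chr3:181429315-181429820, 506 bp), TBR1 and EOMES, T-box factors, POU3F3, a neural POU factor, MEIS1, a HOX cofactor, LHX8 and NR2F2 were closed at canonical CpG-rich starts. FOXP2 was closed at a CpG-poor one, and LHX9 at an alternative one. Of the BBSome and intraflagellar transport genes, 7 of 14 had a member (3 opened): BBS5, BBS7, BBS12, TTC8, ARL6, IFT74 and TTC21B, all at canonical starts and all CpG-rich but BBS12, with a ratio of 0.50. FZD1 and FZD4, Wnt receptors, were 2 of 3, and the sodium channels SCN1A, SCN2A and SCN3A, at CpG-poor members, 3 of 4.

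Further genes, also named after their values were seen, fell into the same classes. MYC and MYCN were closed at CpG-rich canonical starts, with ratios of 0.72 and 0.65. MIR155HG, the host gene of miR-155 in activated B cells, was closed at chr21:26933462-26935588 (CpG ratio 0.74), and TERC, the RNA of telomerase, at chr3:169480914-169483258 (0.69). CpG-poor canonical starts included BTLA, an inhibitory receptor, GPR18 and P2RY12, G protein-coupled receptors, SP140 and SP140L, nuclear body proteins, MPEG1 (perforin-2), NLRP3, an inflammasome sensor, and TNFSF13B, the survival factor BAFF.

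Alternative starts of coding genes were mostly internal. Of 117 members nearest to a start other than the canonical one, of genes with a canonical start on record, 83 lay downstream of it, at a median of 69163 bp, and 69 of these by at least 10 kb. Genes with 2 or more members were CREM and DST with 3 each, and CASP8, CLCN4, CREB5, CSRNP3, CTNNA3, DLG2, DOCK10, GRAMD1B, HDAC9, NFIB, NR2F2, OXR1, SCN2A and VNN2 with 2 each. CREM, a cAMP-responsive factor, had all 3 at CpG-poor starts 10990, 21526 and 68301 bp inside the gene. NR2F2 had both of its members within 4978 bp, at CpG ratios of 0.63 and 0.99.

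The 5 widest members lay nearest to SMARCA2 (3000 bp), FGF14 (2993 bp), SYNE1 (2993 bp), MYO6 (2977 bp) and TP63 (2975 bp), where TP63 encodes a p53-family factor and MYO6 the myosin that moves to the minus end of actin. MYO6 and TP63 were closed at the canonical start. At the limit of the rule, 18 members lay within the last 100 bp inside it and 17 regions within the first 100 bp outside. The last inside were at a lncRNA on chromosome 5 (992 bp) and a Y RNA on chromosome 12 (988 bp), and the first outside were at SNORA48, HAPLN1 and a snoRNA, each at 1003 bp.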

How the data were processed

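ATAC-seq of VAL and OCI-LY3 (24 libraries in 6 conditions) was processed by the authors with Bowtie2 on hg19, MACS2 peaks for each sample, bedtools merging and counting, and DESeq2. Tool versions are not given in the sources used here. The deposited files are 8 lists of region coordinates in base pairs with 3 columns, without counts, scores or p-values, so 0 columns of library values and no depth could be used. A change shared by all regions would not show in such lists.

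Regions were taken as listed. Start sites came from basic transcripts of GENCODE version 44 mapped to GRCh37, and bases from the GRCh37 genome, with 1-based coordinates. GC, CpG ratio, motifs and distances were computed in Python 3.11.15 with pysam 0.24.0 and pandas 2.3.3, and tested on simulated data. Shares carry Wilson and differences Newcombe 95% intervals, medians their quartiles, and no p-value was computed, since regions are not replicates. Members, gene lists and motifs were chosen with earlier results of these data known. Named genes are list genes, genes with 2 or more members, those at the 5 widest members, those with an octamer or PU.1 match, and regions at the limit. Others are marked in the text. Some genes and the results that need them are not reported here.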

Additional observations from a re-analysis of the deposited data

How the results depend on the processing

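No paired analysis was possible because the lists hold no value for a library, and for the same reason no replicate could be left out. Absence by any overlap and a minimum width of 300 bp left the 973 members as they were. The number of members was 875 at 500 bp, 1173 at 2 kb, 838 with 1 kb from the midpoint and 565 with coding start sites only. In that order, the share nearest a canonical coding start was 49.5%, 39.2%, 50.7% and 78.1%, the median GC 48.3%, 45.6%, 49.1% and 53.4%, the median CpG ratio 0.50, 0.34, 0.53 and 0.64, the CpG-rich share 41.7%, 32.5%, 43.0% and 58.1%, and the share with a start site inside 88.7%, 66.2%, 91.6% and 91.7%. The median width moved to 1554 bp at 2 kb and 1676 bp with coding starts only. Median GC within 100 kb was 39.1% with coding starts only. Alternatives chosen after seeing the data gave 39.6% within 25 kb and 39.03% within 500 kb, and, with the CpG ratio over 500 bp, a median of 0.49 and a CpG-rich share of 41.9%. Dropping chromosome 19 or chromosome 2 moved none of these beyond its interval.

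The octamer difference from opened promoters was 0.887 points, with an interval that held 0, between the GC quartiles. Those of the IRF repeat, SP and KLF and TATA kept their direction and left out 0 in the 5 motif alternatives. Of the 160 values for the other motif comparisons, 114 kept direction and side, 17 lost and 20 gained an interval without 0, and 9 turned. In the whole region, members minus distal turned to 0.848 for PU.1, 4.93 for the IRF repeat and 3.41 for STAT and BCL6, and members minus opened to -0.128 for CTCF. Whole regions of members are wider. E2A minus distal turned to -1.39 in 400 bp. Between the GC quartiles, members minus opened turned to -0.655 for PU.1 and -0.278 for MEF2, and members minus distal to -2.77 for E2A and 0.857 for STAT and BCL6. The causes were not tested. Depth is unknown, so a promoter without a call may have been too shallow to pass.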
